A study of Mus musculus with 2 samples.

Results

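The thioredoxin, peroxiredoxin and superoxide defence of the cell was followed here through 10 genes, Txn1, Txnrd1, Txnip, Srxn1, Prdx1, Prdx2, Prdx6, Sod1, Sod2 and Cat. They were taken by gene name from the 44291 genes of the deposited expression tables, and each name matched 1 gene. All 10 passed a filter of a mean FPKM of at least 1 (fragments per kilobase of exon, scaled to the size of the library), as did 13401 genes in all. The set was selected on pathway membership with earlier FPKM differences between PRP and control in view, so the differences below describe the genes and are not a test of the set.

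The cells were primary fibro-adipogenic progenitors (FAPs), the stromal cells of skeletal muscle that can become adipocytes or fibroblasts, of the genotype WT. The study's methods describe FAPs sorted from hind limb muscle with antibodies, and C57BL/6 mice bought at 6 to 8 weeks of age. The group called PRP was treated with platelet-rich plasma, a platelet concentrate of blood, and the group called control with vehicle. Both groups carried the label adipogenic differentiation, for which the medium held insulin at 10 µg/ml, dexamethasone at 0.25 µM and IBMX at 0.5 mM in DMEM with serum (FBS, 20%). The labels name PRP itself, while the study's text describes a transcriptome after exosomes isolated from human PRP, and the sources used here do not say which of these the library holds. The time of harvest and the number of mice behind each library are not given in the sources used here. Each group was 1 library, so no difference below has a replicate check and no p-value was computed.

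Read totals recovered from the FPKM values were 40120843 for PRP and 34139741 for the control. Of 7 FAP markers, 6 passed the filter, and all 6 were lower with PRP (median on the log2 scale, -0.39). Pdgfra, the receptor that marks FAPs, was at 19.8 FPKM with PRP and 28.0 in the control, while Lum was near 0 in both. The summed level of the FAP markers was 237.6 FPKM with PRP and 381.2 in the control. Endothelial markers summed to 9.24 FPKM with PRP against 5.21, with 2 of 4 past the filter. Cdh5 and Pecam1 were at no more than 0.19. Kdr was at 4.23 FPKM with PRP against 1.499, past 2-fold at 1.06 on the log2 scale, and Tek at 4.73 against 3.56. Leukocyte markers summed to 10.1 against 10.4 FPKM with 2 of 5 past the filter, and Ptprc, the pan-leukocyte antigen, was at 0.01 and 0.02. The 2 that passed went opposite ways, Cd68 at 4.56 FPKM with PRP against 2.31 and Lyz2 at 4.91 against 7.57. Platelet and erythroid markers summed to 1.72 and 3.03 FPKM with 1 of 8 past the filter, and the platelet chemokine gene Ppbp was listed at 0 in both libraries. The 1 that passed, Gp1bb, was at 0.872 FPKM with PRP against 2.26, and 92.9% of its exon length overlaps exons of other genes. Of 4 myogenic markers Des alone passed, at 2.91 against 3.39 FPKM, and Pax7 and Myog were listed at 0. The summed adipocyte markers were at 56.8 FPKM with PRP and 47.8 in the control, with 4 of 6 past the filter. Most of that sum was Fabp4, at 40.7 against 33.6 FPKM. Pparg was at 8.69 against 6.55 and Adipoq at 5.49 against 5.22. Of those past the filter, Plin1 alone was lower with PRP, at 1.73 against 2.10. The part of these cell type markers in the values below was not tested, and in bulk RNA fewer cells of a type and less RNA per cell cannot be told apart.

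Superoxide is turned into hydrogen peroxide by superoxide dismutases, and the peroxide is then removed by catalase, glutathione peroxidases and peroxiredoxins. A peroxiredoxin is oxidised in each cycle and is reduced again by thioredoxin, which takes its electrons from NADPH through thioredoxin reductase. Too much peroxide over-oxidises the peroxiredoxin, and sulfiredoxin repairs it. Several genes of this system are known targets of NRF2, a transcription factor that binds antioxidant response elements (AREs) when oxidants or electrophiles release it from KEAP1.

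Promoters were read first, since AREs near gene starts are a known feature of this system. RefSeq promoter sequences of GRCm38.p6, from 250 bases before to 50 after a start, matched 9 of the 10 genes with 11 promoters, of which 3 belonged to Txnrd1. Prdx6 had no match. The ARE core TGACNNNGC, searched on both strands, stood in 4 of the 11 promoters, 1 each of Txnrd1, Srxn1, Prdx1 and Sod1. These were 4 of the 9 genes, and for Txnrd1 the core stood in 1 of the 3 promoters. The core stood in 12.4% of 32851 mouse promoters and in 14.4% of the 11025 promoters of genes past the filter. The 4 matches are shown because they include each of the 3 genes with the largest differences and 1 gene, Sod1, with a small one. Capitals mark the core, which reads GCNNNGTCA on the gene's own strand in all 4. The windows lie at chr10:82859104-82859133, chr2:152105542-152105571, chr4:116685456-116685485 and chr16:90220696-90220725, all on the plus strand.
Txnrd1: ctggatttttGCTTTGTCAttctgacacgg
Srxn1: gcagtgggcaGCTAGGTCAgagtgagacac
Prdx1: cagggaaagcGCTGAGTCAtcccccgtagg
Sod1: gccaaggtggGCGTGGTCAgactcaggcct

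Relative to the start of the promoter that held each, the matches began at -92 in Txnrd1, +29 in Srxn1, -133 in Prdx1 and -56 in Sod1. The match in the Srxn1 promoter thus lay inside the transcribed part, and those of Prdx1 and Sod1 lay before it. The Txnrd1 match lay before an inner start of that gene, within its span of chr10:82833951-82897712. The Txnrd1 promoter at the outer start, chr10:82833701-82834000, held no match to the core. A match is a description of the letters and not a measured binding site.

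Srxn1 and Prdx1 also held AP-1 letters, TGANTCA, with 2 matches each. That motif stood in 7.81% of all promoters and 5.02% of those of genes past the filter, and in no other promoter of the set. The Prdx1 match at -131 overlapped its ARE core, and the Srxn1 match at -45 carried a GC right behind it, which makes it the G form of the core, TGAGNNNGC. That form was added to the search after these promoters had been seen, and it stood in 17.6% of all promoters. The pair below shows the AP-1 letters in capitals, from chr2:152105468-152105497 (plus strand) for Srxn1 and chr4:116685351-116685380 (plus strand) for the second Prdx1 match, at -237.
Srxn1: caaattcacccTGAGTCAgcggccgggcgc
Prdx1: aaacgaggaaaTGACTCAaagggcagtgct

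Of the other motifs searched on both strands, NF-kB letters, a GGG and a TTTCC with 2 bases of any kind between them, stood in the Txn1 promoter and in 1.63% of all promoters. FOXO letters, GTAAACA, stood in the Txnip promoter and in 3.65% of all promoters. The E-box CACGTG stood in none of the 11 promoters and in 7.15% of all. The Txn1 window is chr4:57956598-57956627 (minus strand) and the Txnip window chr3:96557825-96557854 (plus strand), with the motif in capitals.
Txn1: tctggagcctGGAAAAACCCgaagctgctc
Txnip: ttggaggcctgGTAAACAagggccaagtag

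The results showed that 3 of the 10 genes, Srxn1, Txnrd1 and Prdx1, were at least 2-fold higher in the PRP library, and none was 2-fold lower. Over all 13401 genes past the filter, 2.00% were at least 2-fold higher with PRP and 0.828% at least 2-fold lower. Fold changes were taken as log2 of FPKM + 1, PRP minus control, a scale that understates changes of low genes. In either direction, 2.83% of all genes were past 2-fold. The median over the 10 genes was 0.42, and over all genes 0.01. In direction, 9 of the 10 were higher with PRP and 1, Txnip, was lower, while 50.9% of all genes were higher. Since earlier values helped to choose the set, nothing is read from these shares.

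**Figure D1:**
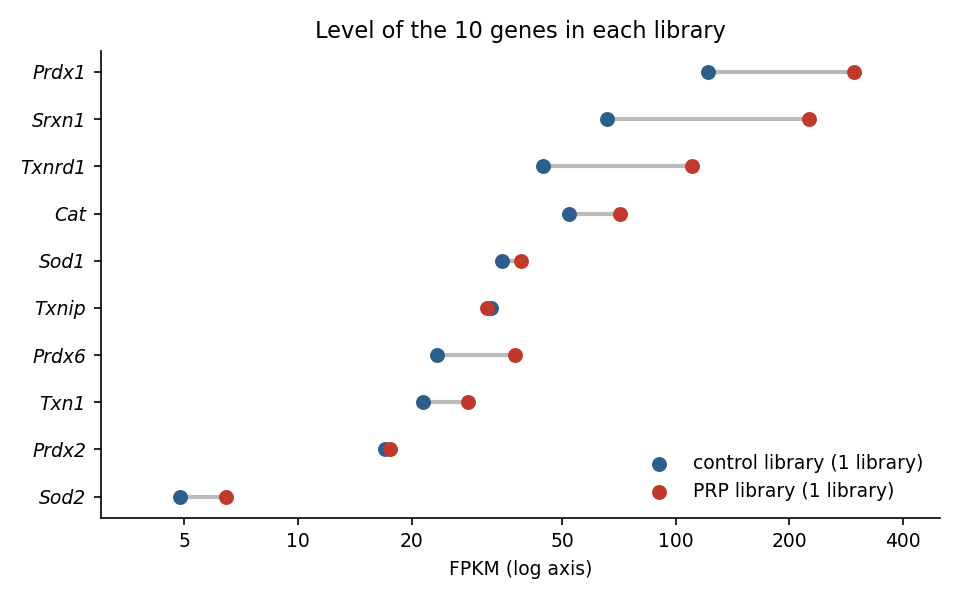
Level of each of the 10 genes in FPKM on a log axis, with 1 point for the control library and 1 for the PRP library, joined by a grey line. Srxn1, Prdx1 and Txnrd1 show the longest lines, and the points of Txnip and Prdx2 nearly coincide.

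Sulfiredoxin, encoded by Srxn1 (ENSMUSG00000032802, chr2:152105516-152111376, plus strand, mm10), reduces over-oxidised peroxiredoxins. Its level was 226.0 FPKM with PRP against 65.7 without it, from 25566 and 6329 reads. The PRP level was the high one, 3.44-fold above the control, with an exact 95% interval of 3.31 to 3.57 that covers counting error only. The log2 fold change was 1.77, which ranked 43 among the 13401 genes. By level the gene ranked 216 with PRP and 824 in the control.

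Txnrd1 (ENSMUSG00000020250, chr10:82833951-82897712, plus strand) encodes the cytosolic thioredoxin reductase. Its level was 110.6 FPKM with PRP and 44.5 in the control, from 31450 and 10754 reads. That was 2.49-fold higher (2.41 to 2.57), or 1.30 on the log2 scale. The enzyme is a selenoprotein, in which a UGA codon near the end of the coding sequence is read as selenocysteine instead of a stop. The codon is shown, in capitals, because Txnrd1 is the one of the 3 genes past 2-fold whose protein depends on it. Its 3 bases lie at chr10:82896037-82896039 on the plus strand.
Txnrd1: ctccagtctggctgcTGAggttaagcccca

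Prdx1 (ENSMUSG00000028691, chr4:116685544-116700822, plus strand), the abundant cytosolic peroxiredoxin, was the highest of the 10 genes in both libraries. It was at 295.6 FPKM with PRP and 121.7 in the control, from 36093 and 12644 reads. The PRP library was 2.43-fold higher (2.36 to 2.49998), and the log2 fold change of 1.27 ranked 137, next to the 130 of Txnrd1. Of the exon stretches of 50 bases in Prdx1, 8.81% also occur in exons of other genes. There were 75 such genes, which summed to 579.8 FPKM with PRP and 554.4 in the control, more than Prdx1 itself. One of these was Gm21399, a processed pseudogene, at 5.09 FPKM with PRP and 1.57 in the control. How reads of shared stretches were counted is not given in the sources used here, so the level of Prdx1 is uncertain to that extent. No such stretch was shared for Srxn1 or Txnrd1.

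Prdx6 (ENSMUSG00000026701, chr1:161240112-161251219, minus strand) encodes the peroxiredoxin that also has phospholipase activity and is reduced by glutathione in place of thioredoxin. Its level was 37.5 FPKM with PRP against 23.4, a ratio of 1.61 (1.52 to 1.70). With a log2 fold change of 0.66 it was the nearest of the 10 below the 2-fold line, and Prdx1 at 1.27 the nearest above. At 1.5-fold, 4 of the 10 genes were higher, Prdx6 being the added one, beside 6.15% of all genes, and none was 1.5-fold lower, beside 4.57% of all.

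Prdx2 (ENSMUSG00000005161, chr8:84969587-84974834, plus strand), the second cytosolic peroxiredoxin that uses thioredoxin, was at 17.5 FPKM with PRP and 17.01 in the control. The ratio was 1.03, with an interval of 0.942 to 1.13 that includes 1. The 2 libraries were thus not distinguishable for Prdx2 at this depth, while Prdx1 was past 2-fold. Exons of Prdx2 overlap those of Rnaseh2a by 177 bases and of Junb by 173, both on the other strand, which is 11.5% of its exon length. Junb was at 27.7 FPKM with PRP and 17.5 in the control, and Rnaseh2a at 8.42 and 8.11. Whether the counting used strand is not given in the sources used here, so reads of the shared bases cannot be assigned.

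Neither thioredoxin nor its inhibitor reached 1.5-fold. Txn1 (ENSMUSG00000028367, chr4:57943373-57956411, minus strand), the cytosolic thioredoxin, was at 28.2 FPKM with PRP against 21.3, a ratio of 1.32 (1.16 to 1.51). It rested on 1191 and 766 reads, the fewest of the set, and its interval was the widest relative to the value. Txnip (ENSMUSG00000038393, chr3:96557957-96561883, plus strand), the arrestin-like protein that binds and inhibits thioredoxin, was at 31.6 FPKM with PRP against 32.4. Its ratio of 0.975 (0.913 to 1.04) was the one value under 1, and the interval includes 1. The antisense gene Gm15441 overlaps 606 exon bases of Txnip, 19.4% of its exon length, and was at 27.4 FPKM with PRP and 28.1 in the control. Reads from this pair cannot be told apart where they overlap.

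The superoxide dismutases and catalase were all higher with PRP by less than 1.5-fold. Sod1 (ENSMUSG00000022982, chr16:90220754-90226329, plus strand), the copper and zinc enzyme of the cytosol, was at 38.9 FPKM with PRP and 34.7 in the control, a ratio of 1.12 (1.06 to 1.18). Sod2 (ENSMUSG00000006818, chr17:13006846-13040063, plus strand), the manganese enzyme of mitochondria, was the lowest gene of the set, at 6.46 against 4.87 FPKM, a ratio of 1.33 (1.21 to 1.45). Of its exon stretches of 50 bases, 21.04% also occur in 415 other genes, the highest share of the 10. The 398 of those genes with a deposited value summed to 7386 FPKM with PRP and 8004 in the control. As for Prdx1, the level and ratio of Sod2 are uncertain to that extent. Cat (ENSMUSG00000027187, chr2:103453849-103485160, minus strand), the peroxisomal enzyme that splits hydrogen peroxide, was at 71.3 FPKM with PRP against 52.1, a ratio of 1.37 (1.30 to 1.44). Catalase, Txn1 and Sod2 thus lay close together, with overlapping intervals, and Sod1 lay below Catalase and Sod2.

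**Figure D2:**
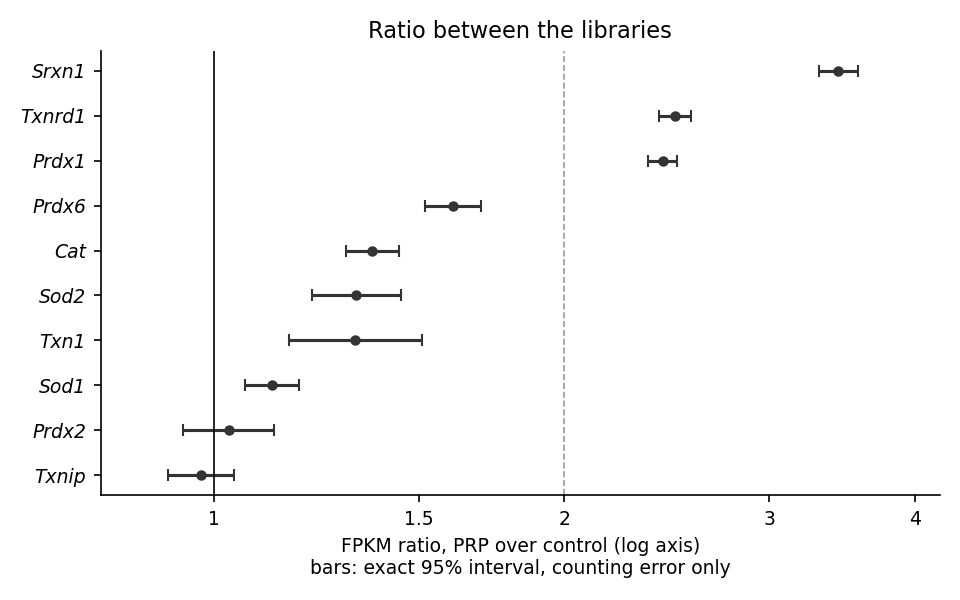
FPKM ratio of the PRP over the control library for each of the 10 genes on a log axis, with exact 95% intervals that cover counting error only. The solid line marks equal levels and the dashed line 2-fold. Srxn1, Txnrd1 and Prdx1 lie to the right of 2-fold, and the intervals of Prdx2 and Txnip include 1.

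In all, 8 of the 10 intervals lay above 1 and none below it. Such intervals compare these libraries and not the treatments, and 26.1% of the 12369 genes with recovered reads had an interval above 1 and 26.1% below. The place of the 10 genes within the whole table is shown in the plot of fold changes.

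**Figure D3:**
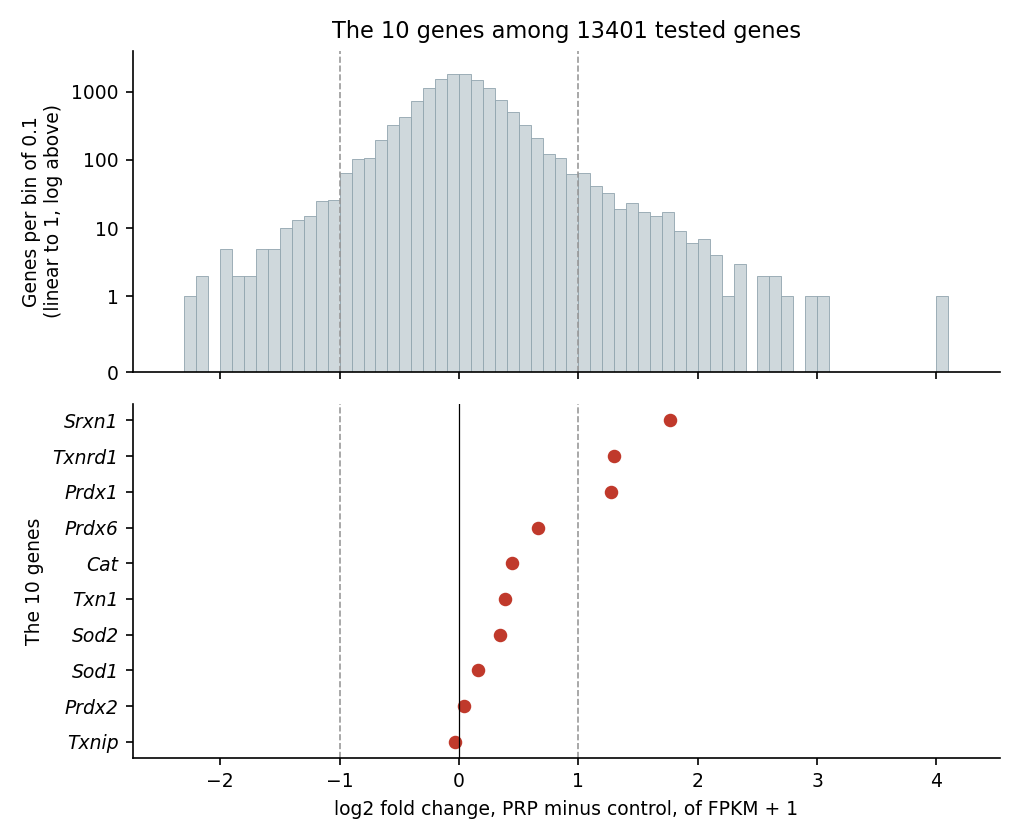
Top, number of genes per bin of 0.1 in log2 fold change (PRP minus control, of FPKM + 1) for the 13401 tested genes, on an axis that is linear to 1 and logarithmic above. Bottom, the fold change of each of the 10 genes on the same axis, with dashed lines at 2-fold. Srxn1 at 1.77, Txnrd1 at 1.30 and Prdx1 at 1.27 lie beyond the line, and Txnip and Prdx2 lie beside 0.

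The order of the genes by FPKM was much the same in both libraries. Prdx1 and Srxn1 led in each, and Prdx2 and Sod2 closed the list in each. Txnrd1 ranked below Cat in the control (44.5 against 52.1 FPKM) and above it with PRP (110.6 against 71.3). Prdx6 stood below Txnip in the control (23.4 against 32.4) and above it with PRP (37.5 against 31.6). Neighbours whose counting intervals overlapped were Sod1 with Prdx6 and Txnip with Txn1 in the PRP library, and Sod1 with Txnip and Prdx6 with Txn1 in the control.

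The 10 genes summed to 863.8 FPKM with PRP and 417.7 in the control, or 0.252% and 0.123% of all FPKM. Prdx1, Srxn1 and Txnrd1 supplied 632.2 FPKM with PRP and 231.9 in the control, which was 73.2% and 55.5% of the set. The other 7 genes summed to 231.6 and 185.8 FPKM.

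The balance between partners within a library does not depend on how the libraries were scaled to each other. The reductase over its substrate, Txnrd1 over Txn1, was 3.92 with PRP and 2.08 in the control, a change of 1.88-fold (1.65 to 2.15). Sulfiredoxin over the peroxiredoxin it repairs, Srxn1 over Prdx1, was 0.764 against 0.540, a change of 1.42-fold (1.35 to 1.49). The inhibitor over thioredoxin, Txnip over Txn1, was 1.12 against 1.52, a change of 0.737-fold (0.638 to 0.851). Each of these 3 intervals, which cover counting error only, left out 1.

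Among the peroxide-removing enzymes, Prdx1 was higher relative to each of 3 others in the PRP library. Prdx1 over Prdx2 was 16.9 with PRP and 7.16 in the control, Prdx1 over Prdx6 was 7.88 and 5.21, and Prdx1 over Cat was 4.15 and 2.34. Catalase over Sod2 was 11.0 and 10.7, a change of 1.03-fold (0.933 to 1.14), which was not distinguishable from 1. Sod1 over Sod2 was 6.03 with PRP and 7.12 in the control, a change of 0.847-fold (0.765 to 0.938).

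**Figure D4:**
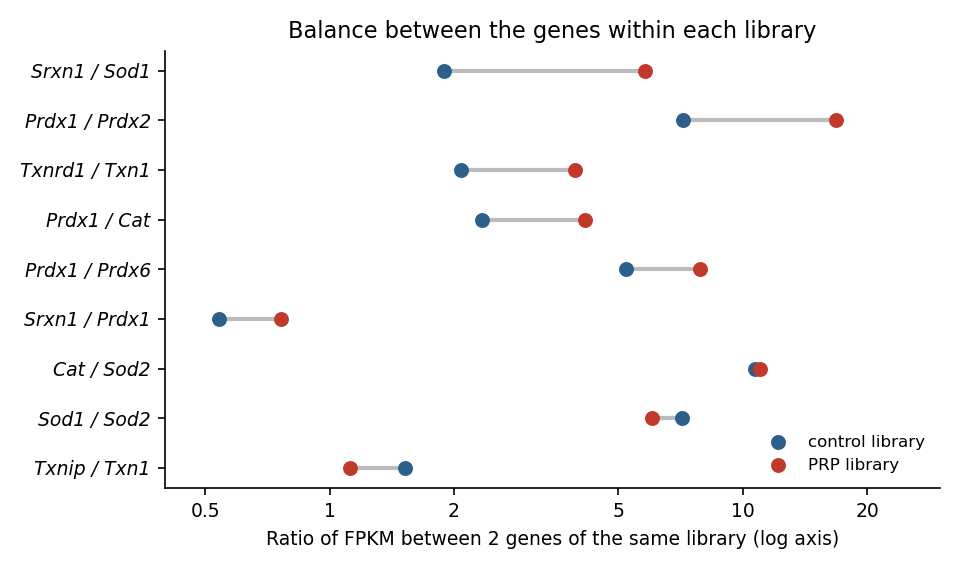
Ratio of FPKM between 2 genes of the same library on a log axis, with 1 point for the control and 1 for the PRP library. Srxn1 over Sod1 shows the widest gap, 1.90 in the control against 5.81 with PRP, and Cat over Sod2 the narrowest.

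Lists of families and partners from the same pathways were then examined, and they were also drawn up with earlier results in view. Some of these lists include members of the 10 genes. In the thioredoxin system, 8 of 18 genes were higher, Txn1 and Txnrd1 among them, and 10 lower, Txnip among them. The median was -0.02, and Txnrd1 was the one past 2-fold. The other reductases differed from it. Txnrd3, the reductase known from testis, was at 8.74 against 5.77 FPKM, a ratio of 1.51 (1.30 to 1.76). Mitochondrial Txnrd2 was at 1.38 against 1.53, with an interval of 0.691 to 1.17 that includes 1. Mitochondrial thioredoxin, Txn2, was at 8.97 against 7.99 FPKM.

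In the list of peroxiredoxins and their repair, 6 of 10 genes were higher and 4 lower, and Prdx1 and Srxn1 were the 2 past 2-fold. The 6 higher were Prdx1, Prdx2, Prdx6 and Srxn1 of the set, with Prdx5 and Sesn2. The 4 lower, Prdx3, Prdx4, Sesn1 and Sesn3, were all outside the set. Mitochondrial Prdx3 was at 8.57 FPKM with PRP against 10.7, a ratio of 0.802 (0.673 to 0.955). Prdx4 of the endoplasmic reticulum was at 8.73 against 9.37, and its interval includes 1. Prdx5, which works in several compartments, was at 116.4 against 108.2 FPKM, a level near that of Prdx1 in the control. The sestrins, stress proteins first linked to peroxiredoxin repair, were at 1.72 against 2.64 (Sesn1), 4.42 against 3.90 (Sesn2) and 0.715 against 1.77 FPKM (Sesn3). The FPKM ratio of Sesn3 was 0.403 (0.342 to 0.475), past 2-fold lower, while its log2 fold change of FPKM + 1 was -0.69 and so not called. The mitochondrial genes Txn2, Txnrd2, Prdx3 and Sod2 had ratios from 0.802 to 1.33, a range that also held cytosolic Prdx2, Sod1 and Txn1. Among mitochondrial genes named further below, Msrb2 was under that range, at 0.694, and Glrx5 within it, at 1.28. This grouping by compartment was made after the values had been seen.

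Among the 4 genes of superoxide removal, Sod1 and Sod2 of the set were the 2 higher. The 2 lower were Sod3 and Ccs, and none of the 4 passed 2-fold. The secreted dismutase, Sod3, was at 11.1 FPKM with PRP against 16.97, a ratio of 0.655 (0.598 to 0.718). Ccs, the copper chaperone of Sod1, was at 7.48 against 7.82. In the list of catalase and glutathione peroxidases, 4 of 6 were higher, Cat among them, and none passed 2-fold. The secreted peroxidase gene Gpx3 was at 55.3 against 99.1 FPKM, a ratio of 0.557 (0.527 to 0.590). Gpx1, the cytosolic enzyme, was at 49.1 against 45.5, and Gpx4, which reduces lipid peroxides, at 58.8 against 54.9. Gpx7, an enzyme of the endoplasmic reticulum, was at 5.03 against 6.98, a ratio of 0.721 (0.566 to 0.916). Sod3, Gpx3 and Gpx7 were thus lower with PRP, while Cat, Sod1 and Sod2 were higher.

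**Figure D5:**
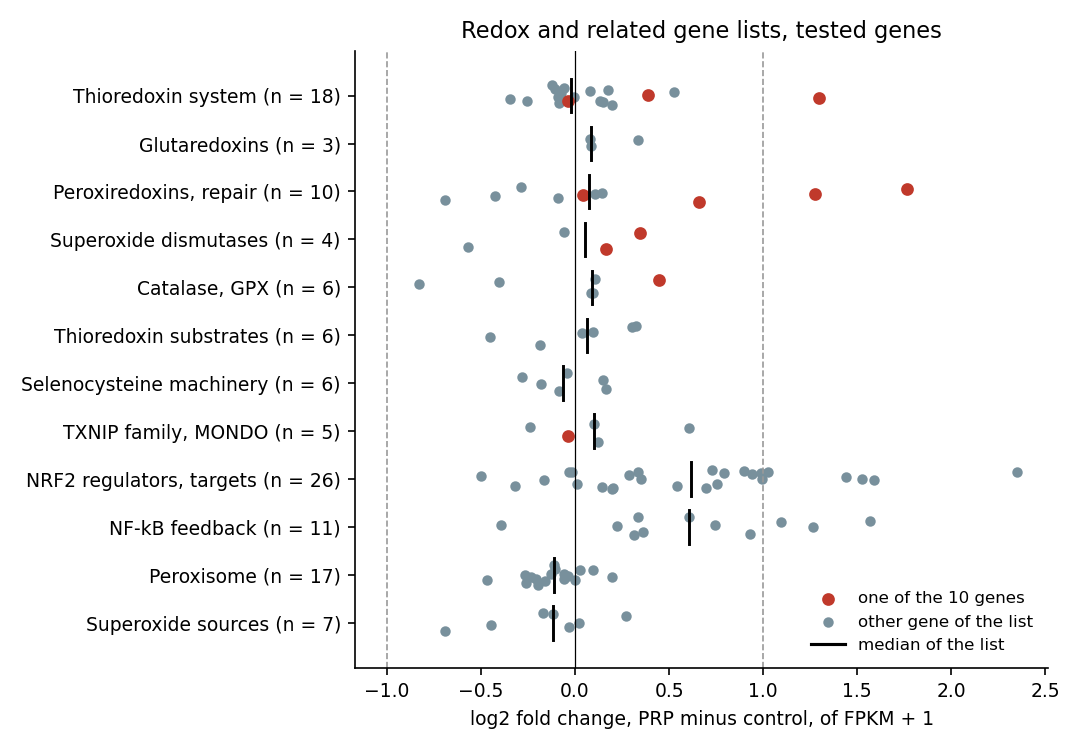
Each point is 1 tested gene and its log2 fold change (PRP minus control, of FPKM + 1), in rows by gene list. Red points are the 10 genes, grey points the other genes, black bars the list medians and dashed lines 2-fold. The medians of the NRF2 list, 0.62, and the NF-kB list, 0.61, lie to the right of those of the other lists drawn here.

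Since Srxn1, Txnrd1 and Prdx1 are known NRF2 targets, 26 other NRF2 regulators and targets were set beside them. Of these, 21 were higher and 5 lower with PRP, while 50.9% of all genes were higher. At least 2-fold higher were 5 or 19.2%, beside 2.00% of all genes, and the median was 0.62. Earlier results helped to draw up the list, so nothing is read from these shares. Intervals lay above 1 for 20 of the 26 genes and below 1 for 3, beside 26.1% each way among all genes with recovered reads. Those 3 were Ftl1, at a ratio of 0.706 (0.677 to 0.737), Me1, at 0.796 (0.750 to 0.845), and Ephx1, at 0.893 (0.869 to 0.917). Slc7a11, the cystine importer, was at 7.98 FPKM with PRP against 0.766. Gclc, the first enzyme of glutathione synthesis, was at 66.5 against 23.8. Taldo1, Gsta4 and Maff were the other 3 past 2-fold. The gene of NRF2 itself, Nfe2l2, was at 57.0 against 32.5 FPKM, a ratio of 1.75. A part of NRF2 in these values was not tested. Glutathione reductase, Gsr, which does for glutathione what Txnrd1 does for thioredoxin, was at 7.29 against 7.40, a ratio of 0.985.

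In the NF-kB feedback list, set beside Sod2 as a known NF-kB target, 10 of 11 genes were higher. At least 2-fold higher were 3 or 27.3%, Tnfaip3, Nfkbie and Icam1. Over all genes 50.9% were higher and 2.00% at least 2-fold higher, and a part of NF-kB was not tested. Tnfaip3, which encodes the inhibitor A20, was at 5.88 against 1.32 FPKM, while Sod2 was at 6.46 against 4.87. For Cat, known to respond to FOXO factors, the expressed factors Foxo3 and Foxo4 were at 6.79 against 5.90 and 11.8 against 10.4 FPKM. In the list of Txnip, its relatives and the MONDO factors that drive it under glucose, 3 of 5 were higher and 2, Txnip and Mlx, lower. Arrdc4, the close relative of Txnip, was at 15.6 against 9.94 FPKM, a ratio of 1.58 (1.43 to 1.73), while Txnip was at 0.975.

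Because the study follows the exosomal miRNAs let-7f-5p and miR-16-5p, the longest annotated 3' UTR of each gene was searched for their seed matches, CTACCTC and TGCTGCT. The mature mouse miRNAs are given as in RefSeq with the seed, bases 2 to 8, in capitals. They have different seeds.
mmu-let-7f-5p: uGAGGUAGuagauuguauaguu
mmu-miR-16-5p: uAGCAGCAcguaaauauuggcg

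Matches were found in 2 of the 10 genes. Sod2 held 2 let-7 matches, at bases 589 and 1998 of a UTR of 4963 bases, and Txnip held 1 miR-16 match, at base 1079 of 1354. Over 10365 genes with a UTR, 11.2% held the let-7 match and 27.1% the miR-16 match. The sites are shown with the match in capitals.
Sod2, first site: aggccctgggctCTACCTCagta
Sod2, second site: ctcagatcctccCTACCTCccca
Txnip: gttgggagaaagTGCTGCTttca

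Beside these sites, Sod2 was at 6.46 FPKM with PRP against 4.87, and Txnip at 31.6 against 32.4. Srxn1, Txnrd1 and Prdx1 held neither match. A seed match is a description of the letters and not a measured target site.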

How the data were processed

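RNA-seq was made from 2 samples of mouse FAPs, 1 per group, with a stranded mRNA kit. Reads were trimmed with fastp 0.23.4, mapped to mm10 with STAR 2.5.3a and counted with featureCounts, per the labels and the study's methods. The authors deposited 1 FPKM value per gene and library, and the annotation release and the strand setting of the counting are not given in the sources used here. The 10 genes and all gene lists were chosen with earlier results of these data known.

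Genes were kept where the mean FPKM was 1 or more, and compared as log2(FPKM + 1), PRP minus control. A gene was called at 2-fold. With 1 library per group there was no test. Genes were named if they were one of the 10, a partner or paralog in the lists, past 2-fold in a list, or an overlapping gene or copy. Reads were recovered from FPKM with summed GENCODE M21 exon lengths (GRCm38). Within a tolerance of 0.001, 26406 of 28160 genes (93.8%) gave whole reads in both libraries. Exact 95% intervals (Clopper-Pearson) were taken on fragments, as reads divided by 2, and cover counting error only, not PCR duplicates. The intervals of ratios between genes of a library are large-sample intervals on the log scale. Of all FPKM, genes of the mitochondrial genome took 2.06% with PRP and 3.70% in the control. Python 3.11.15, NumPy 2.4.6, pandas 2.3.3, SciPy 1.17.1 and matplotlib 3.10.9 were used, and scripts were tested on simulated data. Alternatives covered the pseudocount, filter, scaling and threshold.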

Additional observations from a re-analysis of the deposited data

How the results depend on the processing

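No paired analysis was possible because PRP and control were 1 library each. For the same reason no replicate could be left out. The number of the 10 genes at least 2-fold higher was 3 under each pseudocount, filter and scaling tried. It was 4 at 1.5-fold, with Prdx6 added, and 0 at 4-fold. The median over the 10 genes was between 0.38 and 0.43 under the pseudocounts, filters and scalings, and the mean in its place was 0.63. The number of all genes past the threshold in either direction was 379. It was 739 with a pseudocount of 0.1, 113 with 5, 210 with a mean FPKM of at least 5, 1436 at 1.5-fold and 26 at 4-fold. With both libraries rescaled to a common sum it was 596. It was 638 where mitochondrial genes and the 50 highest genes were left out of that sum but still counted. Both rescalings raised all values while the pseudocount stayed at 1, so these 2 counts also reflect a smaller effective pseudocount. Of 80 single values of the 10 genes under the alternatives, 0 had another sign and 3 moved, all with a pseudocount of 5, to 1.23 for Txnrd1, 1.71 for Srxn1 and 0.21 for Sod2. The 80 include the filter settings, which cannot change the value of a single gene. All 10 genes passed every filter, so the filters could not alter the count of 3 or the median either. Txnip ranged from -0.07 to -0.03 and Prdx2 from 0.01 to 0.04.

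Depth limited Txn1 most, with 1191 and 766 reads. The intervals carry no variation between cultures, mice or PRP preparations. Protein, its oxidation state and peroxide were not measured in these files.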

Other observations

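Genes around the 10 were also measured. The catalase compartment, in a list of peroxisome genes, had 4 of 17 tested genes higher and 13 lower with PRP, with a median of -0.11 and none past 2-fold. Pex19, which brings membrane proteins to peroxisomes, was at 10.2 FPKM with PRP against 14.5, a ratio of 0.703 (0.639 to 0.774). Pex5, the import receptor that carries catalase, was at 4.54 against 5.65. Cat itself was at 71.3 against 52.1 FPKM.

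Among superoxide sources, 7 of 17 genes passed the filter, 2 higher and 5 lower. Nox4, an NADPH oxidase of stromal cells, was at 0.850 FPKM with PRP against 1.98, a ratio of 0.428 (0.348 to 0.525). Cyba, the membrane subunit shared by several such oxidases, was at 68.7 against 67.7. The phagocyte subunit gene Cybb was at 0.154 and 0.0908.

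In the machinery that inserts selenocysteine, which Txnrd1 and glutathione peroxidases need, 2 of 6 genes were higher and 4 lower, with a median of -0.06. Secisbp2, which binds the selenocysteine element of the message, was at 3.85 against 4.90 FPKM. Of the genes whose proteins thioredoxin reduces, 4 of 6 were higher and none passed 2-fold. Rrm2b, a ribonucleotide reductase subunit, was at 2.34 against 1.66 FPKM, and Msrb2, a mitochondrial methionine sulfoxide reductase, at 5.10 against 7.36. All 3 tested glutaredoxins were higher, led by mitochondrial Glrx5 at 15.7 against 12.3.

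Of the 268 genes at least 2-fold higher with PRP, 119 matched the promoter table, with 141 promoters. These held the ARE core in 22.7% and AP-1 letters in 18.4%, beside 14.4% and 5.02% of the promoters of all genes past the filter. In the same order, NF-kB letters stood in 3.55% beside 1.62% and FOXO letters in 4.26% beside 2.59%. The G form of the core stood in 25.5% beside 19.9%, and the E-box in 9.93% beside 10.2%. These shares include Srxn1, Txnrd1 and Prdx1 and are given as a description, with no test.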
